A study of Mus musculus with 8 samples.

Results

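Genes that mark the endothelium of blood and lymph vessels were followed in tumors grown from disseminated tumor cells (DTC tumors) and in mammary tumors, both of the BALB-neuT model. The 35 genes were listed by their known place in endothelium, with no threshold on their values but with earlier results of these data known. Each was read from the probe set annotated with its symbol alone, taking the brightest on average where a gene had several. All 35 were found among the 22180 genes so named. They comprise 28 general endothelial markers, 5 genes of tip cells and angiogenesis, and 2 genes of lymph vessels.

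The series holds 4 DTC tumors and 4 mammary tumors, each read on an Affymetrix mouse gene array of its own. BALB-neuT mice carry an activated rat *Her2/neu* oncogene under a hormone-responsive viral promoter active in mammary epithelium, and the tumors grew under the skin of NSG mice, which lack mature T, B and NK cells. RNA came from shavings of whole tumors and so includes that of vessels and other stroma. Marrow of BALB-neuT mice was the source of the DTC tumors. The labels call these cells early, whereas in the paper only marrow of older donors gave tumors. The mammary tumors came from TUBO cells, an established BALB-neuT cell line, according to the sample labels, but from primary tumors according to the extraction protocol and the methods. If they came from TUBO cells, a trait of 1 line and a difference between the tumor types cannot be told apart. The protocol given for every sample has the cells injected in a mix of Matrigel made with 1 µg murine bFGF, an angiogenic factor,, in both groups alike. Host age and whether each tumor grew in its own mouse are not stated, so the tests below rest on the spread among these tumors. If some of them shared a host or donor cells, they are not independent. The p-values below may then be too small and the intervals too narrow.

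Endothelial cells line all vessels and hold together through junction proteins such as VE-cadherin. When a tumor sends out VEGF, some of these cells become tip cells that lead a new sprout, and others follow as stalk cells. Angiopoietins acting on the receptor Tek govern whether a vessel stays quiet or is remodelled, and the transcription factor Prox1 turns venous endothelium into lymph vessel. Tumors short of oxygen commonly raise VEGF, and apelin (*Apln*) and angiopoietin 2 (*Angpt2*) are known to be raised by low oxygen in endothelial cells.

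Values are the deposited log2 levels, so a difference of 1 is a doubling. They were not compared between genes, since each probe set has its own brightness. Differences are DTC minus mammary tumors. Arrays correlated at 0.977 to 0.988 within groups and at 0.975 to 0.984 between them, and the lower quartile of the probe sets was 3.92 to 3.97. Of 8 luminal epithelial markers, *Krt8* read 10.12 to 10.81 and *Krt18* 11.07 to 11.75, while *Krt19* read 4.63 to 4.95 in all tumors. *Epcam* (-0.38, unadjusted p = 0.0261, adjusted p = 0.288 from limma) and *Cldn3* (-0.39, unadjusted p = 0.0334, adjusted p = 0.308) were lower in every DTC tumor than in every mammary tumor. So were 5.76% of all genes. Of the 8 markers 5 had a lower and 3 a higher mean in DTC tumors, with a median difference of -0.04. The higher ones were *Krt18* (0.30, 95% interval 0.02 to 0.57 from limma over all probe sets), *Krt8* (0.26) and *Krt19* (0.13). The test was rerun here with the filter and thresholds of the study's methods, as limma over 18877 probe sets with an interquartile range above 0.25. A call needed an adjusted p of 0.05 or less together with a difference of 1 or more in either direction, which 0.132% of probe sets met.

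Most general vessel markers differed little between the kinds of tumor, with *Clec14a* (-0.52) and *Ecscr* (0.36) farthest from 0, and of the 12 that could be tested 0 were called in limma, and 1 had an unadjusted p up to 0.05. The median difference of all 28 was 0.02, against 0.01 over all genes, and 16 of the 28 had a higher and 12 a lower mean in DTC tumors. *Cdh5* (VE-cadherin), the adhesion protein of endothelial junctions, stood at 8.86, 8.58, 8.82 and 8.30 in DTC tumors 1 to 4 and at 8.49, 8.42, 8.85 and 8.86 in mammary tumors 1 to 4. The ranges overlapped almost fully, with a difference of -0.02 (standard error 0.19, adjusted p = 0.982 from limma). *Pecam1*, another junctional adhesion protein, stood at 7.85, 7.94, 7.80 and 7.45 in DTC tumors and at 7.66, 7.89, 7.60 and 7.82 in mammary tumors. Both the highest and the lowest *Pecam1* levels were those of DTC tumors 2 and 4, and the difference was 0.02 (95% interval -0.27 to 0.31).

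**Figure D1:**
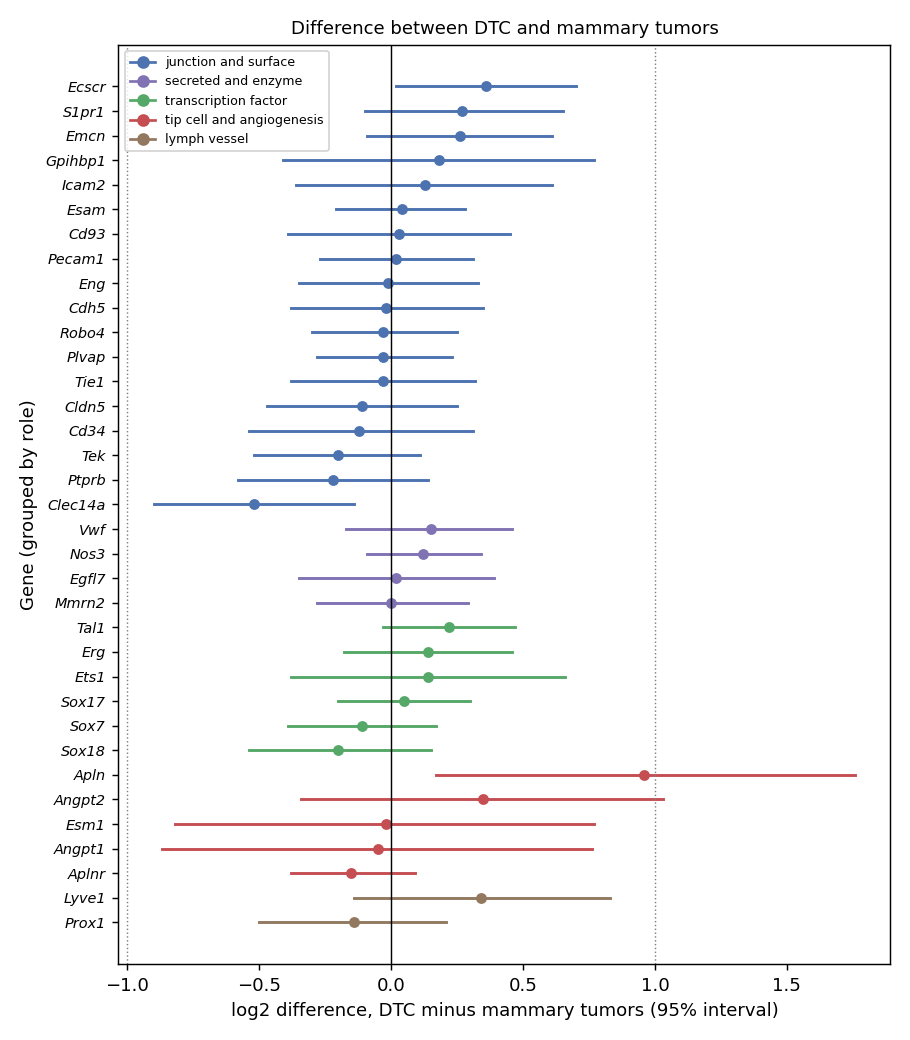
Log2 difference, DTC minus mammary tumors, of the 35 vessel genes (points, means of 4 tumors per group) with 95% intervals from limma without the interquartile filter (lines); dotted lines mark a difference of 1 in either direction. Most points lie within 0.25 of 0, and *Apln* at 0.96 lies farthest out.

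The precision of each difference was read from 95% intervals of a limma fit without the interquartile filter, which covered every gene. For 33 of the 35 genes the interval lay within 1 of 0 in both directions, as it did for 95.5% of all genes, so that a change of 1 log2 unit lay outside it. The other two were *Apln* (0.17 to 1.76) and *Angpt2* (-0.34 to 1.03). A narrower bound of 0.5 held for 17 of the 28 general markers and 66.0% of all genes. The difference itself was under 0.25 in size for 24 of the 28, and for 73.5% of the 10599 genes of similar brightness. In whole tumors, fewer endothelial cells and less RNA per endothelial cell cannot be told apart.

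The interquartile filter of the methods left 18 of the 35 genes for the test, and 37.3% of all genes. In limma 0 of the 18 reached an adjusted p of at most 0.05, and 2 had an unadjusted p of at most 0.05, against 14.8% of all probe sets tested. Without the filter 3 of the 35 did, the third being *Ecscr*, against 13.4% of all genes. These were *Apln*, higher in DTC tumors as were 6.47% of probe sets, and *Clec14a*, lower as were 8.28%. The smallest adjusted p of any of the 35 genes over all alternatives of the fit was 0.121, that of *Apln* with 1 probe set per gene. For 0 of the 35 genes did the tumors of the groups lie apart without overlap, whereas they did for 9.64% of all genes, 3.89% with every DTC tumor higher and 5.76% with every DTC tumor lower. This count rested on DTC tumor 4. Without it 7 genes (*Ecscr*, *Clec14a*, *S1pr1*, *Tek*, *Ets1*, *Tal1* and *Apln*) did not overlap, beside 14.1% of all genes in the same 7 tumors.

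*Apln* encodes apelin, a peptide secreted by tip cells that acts on the receptor encoded by *Aplnr*. It had the largest difference of the 35 genes. Its level was 7.09, 6.00, 7.07 and 5.51 in DTC tumors 1 to 4, and 5.13, 5.77, 5.29 and 5.65 in mammary tumors 1 to 4. DTC tumors 1 and 3 lay far above all others, DTC tumor 2 a little above the highest mammary tumor, and DTC tumor 4 below 2 of the mammary tumors. The means were 6.42 ± 0.79 (SD, n = 4) and 5.46 ± 0.30 (SD, n = 4), a difference of 0.96 or 1.95-fold (standard error 0.34, unadjusted p = 0.0177, adjusted p = 0.261 from limma). The gene therefore did not pass the test over all genes. Without DTC tumor 1 or without DTC tumor 3 the difference was 0.74 (unadjusted p = 0.0545 and 0.0564 from limma), and without DTC tumor 4 it was 1.27 (unadjusted p = 0.00149, adjusted p = 0.125 from limma). Its receptor *Aplnr*, found on veins and on sprouting endothelium, read 6.19, 6.18, 6.06 and 6.17 in DTC tumors and 6.17, 6.14, 6.45 and 6.42 in mammary tumors. Those levels hardly varied, and the difference was -0.15 (95% interval -0.38 to 0.09). The receptor was not in the test, since its interquartile range was too small.

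**Figure D2:**
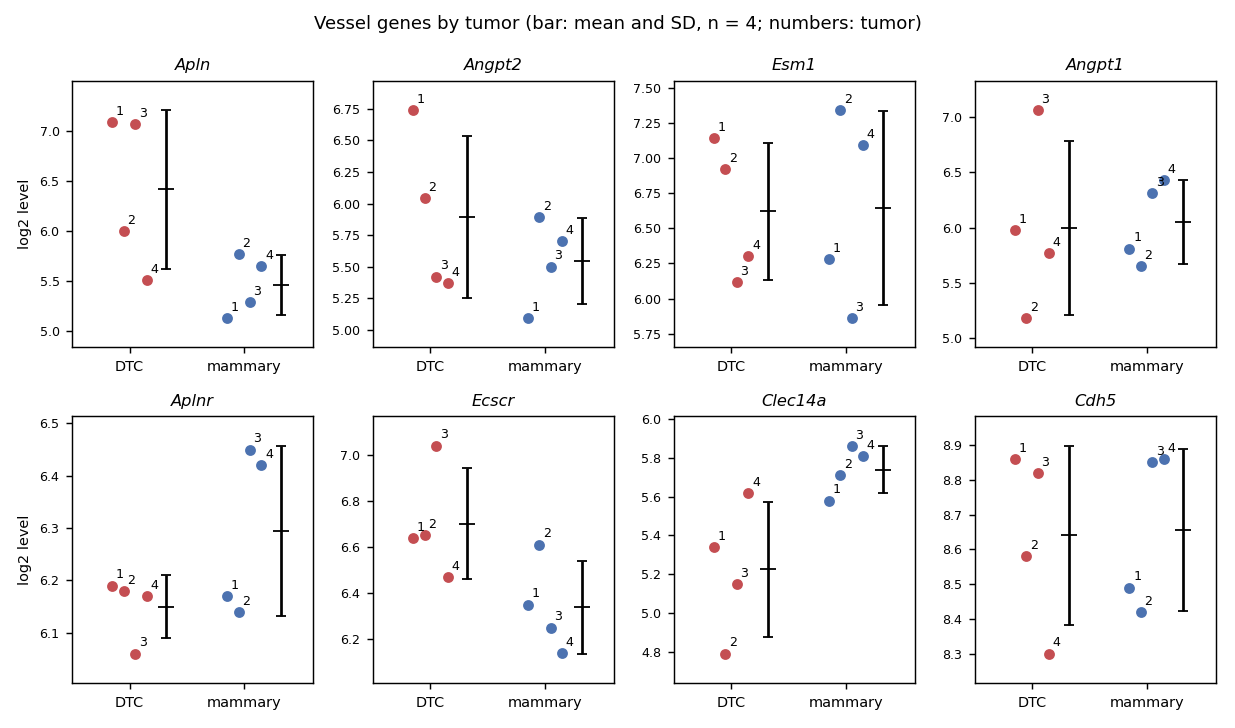
Log2 level (y axis) of 8 vessel genes in each DTC tumor (red) and each mammary tumor (blue), with tumor numbers beside the points and the mean and SD of 4 tumors as bars; each panel has its own scale, which does not start at 0. *Apln* separates DTC tumors 1 and 3 (7.09 and 7.07) from the rest, while the groups overlap in every panel.

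The promoters of the pair of genes with an unadjusted p of at most 0.05 are shown beside those of the angiopoietin receptor *Tek* and its relative *Tie1*, for which neither 95% interval excluded 0. Each is the 250 bases before the annotated start (RefSeq, GRCm38.p6, given 5′ to 3′ on the gene's own strand). Capitals mark the core of the hypoxia response element, ACGTG or its complement CACGT, and the core bound by ETS factors such as Erg and Ets1, GGAAG or its complement CTTCC. *Apln* lies at chrX:48034854-48035103 on the minus strand, *Clec14a* at chr12:58269259-58269508 on the minus strand, *Tek* at chr4:94739039-94739288 on the plus strand and *Tie1* at chr4:118489850-118490099 on the minus strand.
Apln: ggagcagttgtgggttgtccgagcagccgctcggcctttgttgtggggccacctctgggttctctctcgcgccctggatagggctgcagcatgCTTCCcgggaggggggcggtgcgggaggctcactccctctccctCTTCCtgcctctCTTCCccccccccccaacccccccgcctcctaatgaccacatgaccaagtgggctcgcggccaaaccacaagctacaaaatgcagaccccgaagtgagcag
Clec14a: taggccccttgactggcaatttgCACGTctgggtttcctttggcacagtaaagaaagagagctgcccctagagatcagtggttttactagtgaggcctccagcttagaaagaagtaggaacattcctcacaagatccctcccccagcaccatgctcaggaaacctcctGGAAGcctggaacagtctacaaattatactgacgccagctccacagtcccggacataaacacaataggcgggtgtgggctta
Tek: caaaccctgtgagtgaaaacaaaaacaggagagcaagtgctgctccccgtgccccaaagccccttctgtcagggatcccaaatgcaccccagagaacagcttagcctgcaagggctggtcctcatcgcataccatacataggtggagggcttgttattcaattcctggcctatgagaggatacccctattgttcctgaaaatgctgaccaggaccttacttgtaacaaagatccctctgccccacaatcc
Tie1: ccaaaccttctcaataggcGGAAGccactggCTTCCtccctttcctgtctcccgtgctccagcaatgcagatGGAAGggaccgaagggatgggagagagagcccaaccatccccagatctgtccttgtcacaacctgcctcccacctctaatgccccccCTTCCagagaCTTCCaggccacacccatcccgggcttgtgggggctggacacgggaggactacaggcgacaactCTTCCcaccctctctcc

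The letters ACGTG or CACGT were found in 16.6% of 32851 promoter windows of this length, and of the 4 shown in that of *Clec14a* alone, once, 227 bases before the start. ACGTG is also part of the E-box CACGTG, so a match is not particular to the hypoxia element. The match in *Clec14a* reads CACGTC and so is not that E-box. GGAAG or CTTCC was found in 64.1% of windows. *Apln* held this longer ETS form 3 times, *Clec14a* 1 time, *Tie1* 6 times and *Tek* not in this window. The windows of *Clec14a*, *Tek* and *Tie1* also hold the shorter GGAA or TTCC, unmarked. Of the 35 genes, 14 had promoters in the table (20 windows), and 11 of these held GGAAG or CTTCC and 1 held ACGTG or CACGT. A match of letters is a description of these windows and was not tied to any measured binding.

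*Clec14a*, a lectin-like surface protein of tumor vessels, was the one general marker with an unadjusted p of at most 0.05. It read 5.34, 4.79, 5.15 and 5.62 in DTC tumors and 5.58, 5.71, 5.86 and 5.81 in mammary tumors. DTC tumors 1 to 3 lay below every mammary tumor, and DTC tumor 4 lay just above mammary tumor 1. The difference was -0.52, or 1.43-fold lower in DTC tumors (standard error 0.20, unadjusted p = 0.0223, adjusted p = 0.277 from limma). Without DTC tumor 2, the lowest, it was -0.37 (unadjusted p = 0.0802 from limma), and without mammary tumor 3 it was -0.48 (0.0569). *Clec14a* and its relative *Cd93* both bind the matrix protein encoded by *Mmrn2*, and neither partner followed it. *Cd93*, which myeloid cells also carry, differed by 0.03 (95% interval -0.39 to 0.45) and *Mmrn2* by 0.00 (-0.28 to 0.29).

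Among the other surface genes, the highest differences were those of *Ecscr*, *S1pr1* and *Emcn* and the lowest those of *Ptprb*, *Tek* and *Cd34*. *Ecscr*, a surface protein that governs endothelial migration, read 6.64, 6.65, 7.04 and 6.47 in DTC tumors and 6.35, 6.61, 6.25 and 6.14 in mammary tumors. Mammary tumor 2 alone reached into the range of the DTC tumors, and the difference of 0.36 had an unadjusted p of 0.0721 (adjusted p = 0.387 from limma), or 0.0380 unadjusted without the interquartile filter. *S1pr1*, a lipid receptor that stabilizes vessels, read 6.35, 6.19, 6.45 and 5.89 in DTC tumors and 5.54, 5.99, 6.13 and 6.12 in mammary tumors. DTC tumors 1 to 3 lay above every mammary tumor and DTC tumor 4 below 3 of them, with a difference of 0.27 (adjusted p = 0.577 from limma). *Emcn*, a sialomucin of veins and capillaries, read 8.01, 7.86, 8.38 and 7.79 in DTC tumors and 7.88, 7.50, 7.68 and 7.93 in mammary tumors. DTC tumors 1 and 3 were highest, and the difference was 0.26 (95% interval -0.09 to 0.61). *Cd34*, which fibroblast and blood progenitors also carry, read 7.32, 7.66, 7.17 and 7.33 in DTC tumors and 7.05, 7.79, 7.32 and 7.78 in mammary tumors. The mammary tumors held both its highest and its lowest level, and the difference was -0.12 (95% interval -0.54 to 0.31). The remaining surface genes, *Esam*, *Icam2* and *Cldn5* of endothelial contacts, *Eng*, a coreceptor for TGF-β, *Robo4*, the capillary proteins *Plvap* and *Gpihbp1* and the receptor *Tie1*, lay between -0.11 and 0.18.

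Of the genes of the angiopoietin system, *Angpt1*, *Angpt2* and *Tie1* could be tested and had no unadjusted p of at most 0.05 in limma, and *Tek* and *Ptprb* were kept out by the filter. *Tek*, the receptor of both angiopoietins, read 5.37, 5.20, 5.48 and 5.72 in DTC tumors and 5.91, 5.59, 5.59 and 5.50 in mammary tumors. Only DTC tumor 4 reached above the lower mammary tumors, and the difference was -0.20 (95% interval -0.52 to 0.11). *Ptprb*, a phosphatase that restrains Tek, read 6.64, 6.72, 6.16 and 6.80 in DTC tumors and 6.95, 6.57, 6.74 and 6.96 in mammary tumors. DTC tumor 3 was far the lowest, and the difference was -0.22 (95% interval -0.58 to 0.14). *Tie1*, a relative of Tek, differed by -0.03 (-0.38 to 0.32). *Angpt1*, the agonist made mainly by cells around the vessel, read 5.98, 5.18, 7.06 and 5.77 in DTC tumors and 5.81, 5.65, 6.31 and 6.43 in mammary tumors. DTC tumors held both its highest and its lowest level, and the difference was -0.05 (95% interval -0.87 to 0.76). A second probe set of *Angpt1*, at 3.62 to 3.95 and thus near the low end of the array, differed by 0.03. *Angpt2*, released by endothelial cells of sprouting and regressing vessels, read 6.74, 6.04, 5.42 and 5.37 in DTC tumors and 5.09, 5.89, 5.50 and 5.70 in mammary tumors. DTC tumors 1 and 2 were highest, DTC tumors 3 and 4 were below 3 of the mammary tumors, and the difference of 0.35 did not pass (standard error 0.30, adjusted p = 0.674 from limma). It rested on single tumors, being 0.07 without DTC tumor 1, 0.20 without mammary tumor 1, 0.52 without DTC tumor 4 and 0.55 with array weights.

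*Esm1*, which encodes endocan, a proteoglycan secreted by tip cells and known to follow VEGF, varied widely without regard to group. It read 7.14, 6.92, 6.12 and 6.30 in DTC tumors and 6.28, 7.34, 5.86 and 7.09 in mammary tumors. Each group held a high and a low pair, and the difference was -0.02 (standard error 0.34, adjusted p = 0.986 from limma). The 5 genes of tip cells and angiogenesis had a median difference of -0.02, with 2 higher and 3 lower means, and 1 of the 4 that could be tested had an unadjusted p of at most 0.05. All of them but *Aplnr* stood apart from the general markers in their spread between tumors of 1 group. The pooled within-group SD was 0.62 for *Angpt1*, 0.60 for *Apln* and *Esm1* and 0.51 for *Angpt2*, at or above that of 97.6% of all genes, while *Aplnr* had 0.12. The general markers had a median SD of 0.23, against 0.17 for genes of similar brightness, and the highest among them was that of *Gpihbp1* at 0.44. A further list of 16 tip cell genes, read below, had a median SD of 0.23, so a wide spread was not common to tip cell genes. These spreads are a description, without a test.

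**Figure D3:**
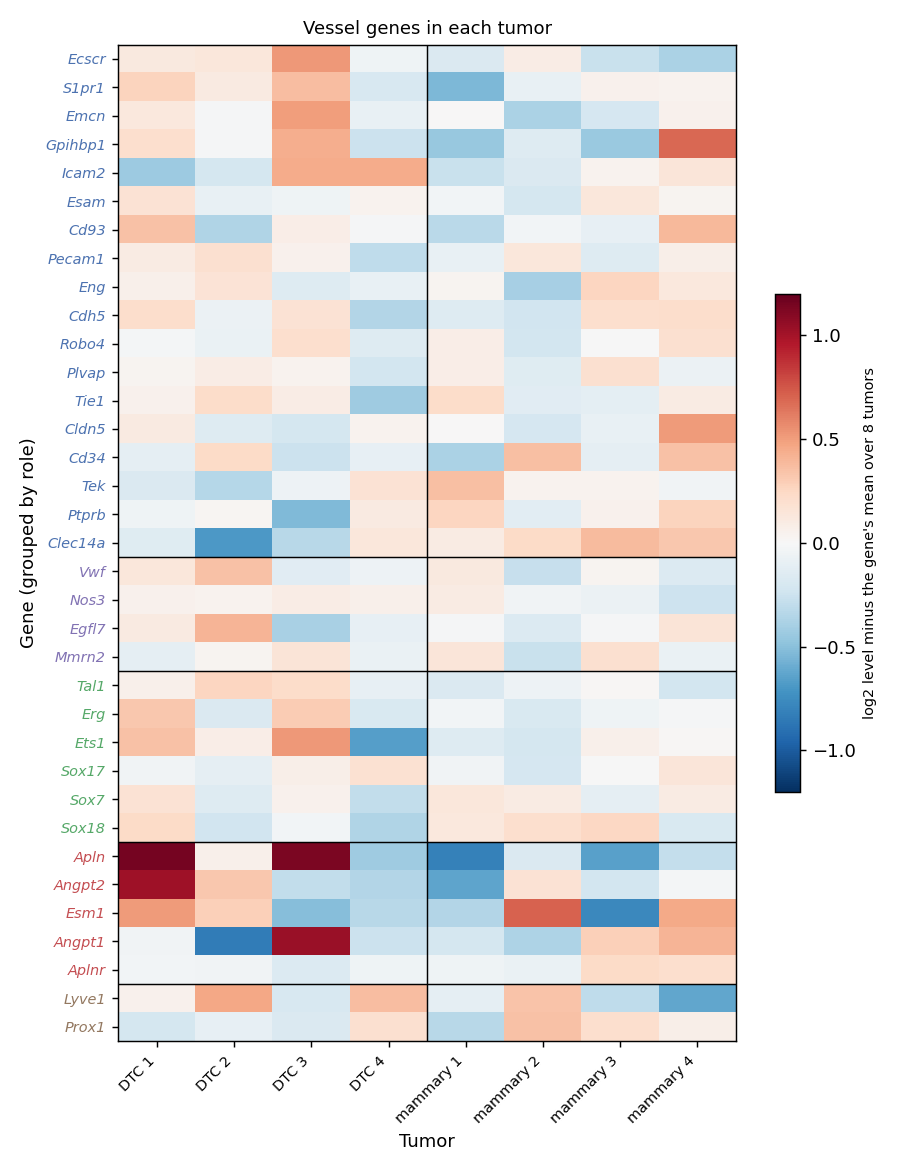
Log2 level of each vessel gene (rows, grouped by role) in each tumor (columns), as the difference from that gene's mean over the 8 tumors (color, red higher and blue lower). Strong color is found in the rows of *Apln*, *Angpt2*, *Esm1* and *Angpt1*, and the general markers above them are mostly paler.

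The transcription factors of endothelial identity were close to 0 as well. Of the related factors of vessel development, *Sox7* differed by -0.11 and *Sox17* by 0.05. *Sox18* read 6.09, 5.63, 5.82 and 5.50 in DTC tumors and 5.98, 6.06, 6.11 and 5.67 in mammary tumors. Each group held a low tumor, number 4 in both, and the difference was -0.20 (adjusted p = 0.703 from limma). *Erg*, which maintains endothelial junctions, differed by 0.14 (95% interval -0.18 to 0.46). *Ets1*, which lymphoid and tumor cells also express, ranged from 6.04 to 7.22 in DTC tumors and from 6.49 to 6.76 in mammary tumors. DTC tumor 4 held its lowest value, and the difference was 0.14 (adjusted p = 0.861 from limma). *Tal1*, a factor of blood and vessel precursors, differed by 0.22 (-0.03 to 0.47), and among 4 genes of red cell precursors *Slc4a1* and *Gata1* differed most, by -0.12 and -0.07. Of the secreted and enzyme genes, *Vwf*, the carrier of clotting factor VIII, differed by 0.15 (-0.17 to 0.46), the matrix protein *Egfl7* by 0.02 and *Nos3*, which makes nitric oxide, by 0.12. The 4 measured platelet genes, cells that also hold *Vwf*, had a median of -0.08, with *Itga2b* at -0.14 and *Pf4* at -0.09. *Sox7* and *Mmrn2* lie on chromosome 14, whose 537 protein-coding genes with a mean level of at least 4 had a median of -0.30, with 77.5% lower in DTC tumors. The part of that chromosome in their values was not tested.

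Of the lymph vessel genes, *Lyve1*, a hyaluronan receptor, read 6.73, 7.14, 6.49 and 7.05 in DTC tumors and 6.57, 7.02, 6.38 and 6.06 in mammary tumors. The groups overlapped, and the difference was 0.34 (standard error 0.23, adjusted p = 0.548 from limma). Leaving out single tumors, the *Lyve1* difference ranged from 0.20 without mammary tumor 4 (unadjusted p = 0.419) to 0.51 without mammary tumor 2 (unadjusted p = 0.0438, adjusted p = 0.382 from limma). Some macrophages carry *Lyve1* too, and the 11 macrophage markers had a median of 0.12, with 8 higher and 3 lower means and 0 at an unadjusted p of at most 0.05 in limma, *Itgam* and *Cd14* being highest at 0.33 each. Their mean level was 8.41 to 8.77 in DTC tumors and 8.13 to 8.66 in mammary tumors, so that none of the tumors lacked them, and their part in the *Lyve1* value was not tested. *Prox1*, the factor that defines lymph vessel identity, lay between 3.27 and 3.95 on all arrays, near or below the lower quartile of each array, where small differences are poorly measured. Of 11 further lymph vessel genes *Itga9* alone was called (1.23, adjusted p = 0.0391 from limma), an integrin subunit that epithelial and other cells also carry, and the median was 0.00. That adjusted p was above 0.05 without DTC tumor 1 (0.140) or 2 (0.0918), without mammary tumor 1 (0.146), 2 (0.0962), 3 (0.0714) or 4 (0.108), with an interquartile range above 0.5 (0.0898) and with the replicate block (0.0655). It was below 0.05 in the other alternatives, and lowest with 1 probe set per gene (0.00821). The paper's own list of changed genes also holds *Itga9* as higher in DTC tumors.

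Other genes of the same cells, from lists written with earlier results of these data known, also had medians close to 0. Of 40 further blood vessel genes 20 had a higher and 20 a lower mean, with a median of 0.00, and among the 14 tested 1 higher and 3 lower genes had an unadjusted p up to 0.05, beside 6.47% and 8.28% of all probe sets. *Flt1*, a VEGF receptor, read 7.79, 7.60, 7.72 and 7.03 in DTC tumors and 6.64, 6.39, 6.81 and 6.76 in mammary tumors. Every DTC tumor lay above every mammary tumor, as in 3.89% of all genes, and the difference was 0.88 (unadjusted p = 0.00112, adjusted p = 0.109 from limma). Over the alternatives its adjusted p ranged from 0.0322, with 1 probe set per gene, to 0.298. *Kdr*, the main signalling receptor for VEGF, differed by 0.05 (adjusted p = 0.946 from limma). *Vegfa*, the ligand, differed by 1.04 (unadjusted p = 7.61e-05, adjusted p = 0.0513 from limma), so that it just missed a call here. The paper's own list of changed genes holds *Vegfa* as higher in DTC tumors, and its qPCR also found more *VEGF* there. It reports, without showing the data, that the density of microvessels did not differ between the tumor types. Over the alternatives the adjusted p of *Vegfa* ranged from 0.00929 to 0.205. The 3 lower genes were *Ltbp4*, which binds latent TGF-β (-0.53), the water channel *Aqp1* (-0.52) and thrombomodulin, *Thbd* (-0.47), with adjusted p from 0.255 to 0.334 in limma. Of 16 further tip cell genes 11 had a higher and 5 a lower mean, with a median of 0.14. None of the 9 tested had an unadjusted p of at most 0.05 in limma, the largest differences being those of the basement membrane gene *Nid2* (0.36) and *Mcam* (0.33).

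The tip cell genes were also read relative to the general vessel markers of the same tumor, whose level varied little. The per-tumor median of the 28 general markers, each centred on its own mean, was 0.10, 0.01, 0.07 and -0.09 in DTC tumors 1 to 4 and 0.00, -0.15, 0.00 and 0.08 in mammary tumors 1 to 4, a mean of 0.02 ± 0.09 (SD, n = 4) against -0.02 ± 0.10 (SD, n = 4). DTC tumor 4 and mammary tumor 2 were lowest, the former holding the lowest level of 8 of the 28 genes and the latter of 7. With that median subtracted, *Apln* stood at 1.05, 0.06, 1.06 and -0.34 in DTC tumors and at -0.81, -0.02, -0.66 and -0.37 in mammary tumors. DTC tumor 4 then lay below mammary tumor 2 alone. The differences between groups became 0.92 for *Apln*, 0.31 for *Angpt2*, -0.06 for *Esm1*, -0.09 for *Angpt1* and -0.19 for *Aplnr*.

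**Figure D4:**
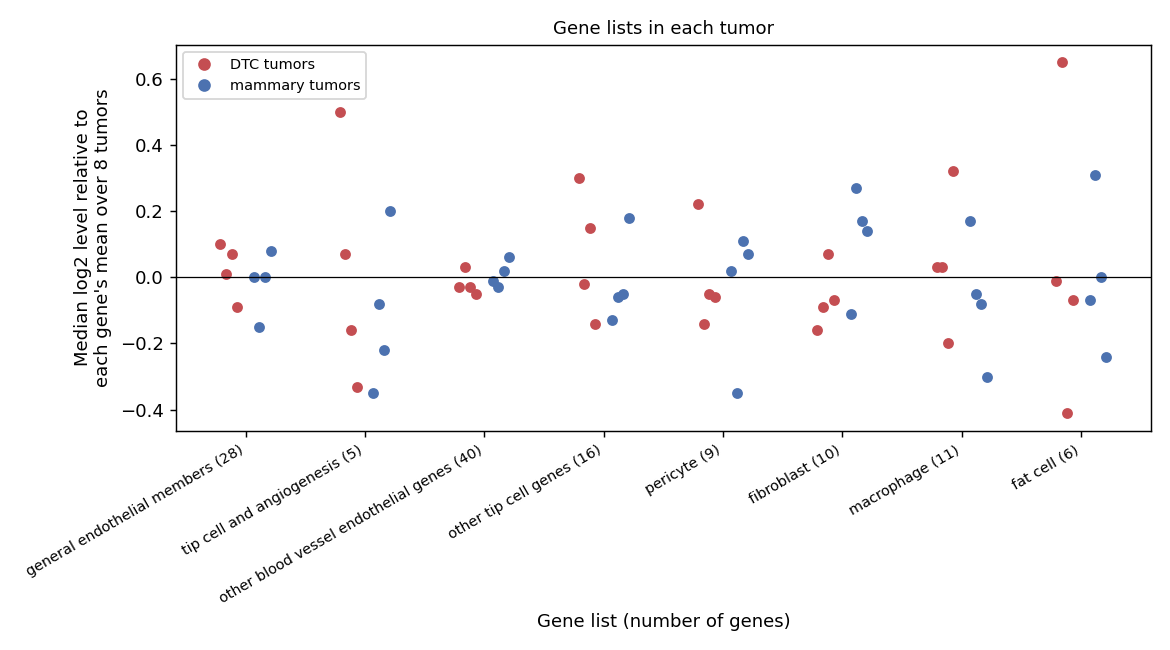
Median log2 level of each gene list in each tumor, relative to each gene's mean over the 8 tumors (y axis), for DTC tumors (red) and mammary tumors (blue), with tumors 1 to 4 from left to right. The 28 general markers lie between -0.15 and 0.10, and the 5 tip cell and angiogenesis genes between -0.35 and 0.50.

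Markers of other stromal cells were read beside the vessel genes. The 9 pericyte genes had a median of 0.02, with *Abcc9* at 0.94 (unadjusted p = 0.0374, adjusted p = 0.317 from limma), where DTC tumor 4 stood at 10.11 and without which the difference was 0.51 (unadjusted p = 0.0818 from limma). Of 10 fibroblast genes 8 had a lower mean, with a median of -0.12, and *Lum* (-1.23) and *Dcn* (-0.85), matrix proteoglycans, had unadjusted p = 0.00177 and 0.0140 (adjusted p = 0.128 and 0.245 from limma). The mean level of the fibroblast list was 8.20 to 8.55 in DTC tumors and 8.57 to 8.90 in mammary tumors, without overlap. The median of the same list, each gene centred on its own mean, did overlap, at -0.16, -0.09, 0.07 and -0.07 in DTC tumors and -0.11, 0.27, 0.17 and 0.14 in mammary tumors. Of 6 genes of blood progenitors and mast cells, *Flt3*, a growth factor receptor, was lower in every DTC tumor than in every mammary tumor (-0.62, unadjusted p = 0.0113, adjusted p = 0.233 from limma). The same held for 5.76% of all genes. The 6 fat cell genes had a median of 0.10, with *Plin1* at 0.20 and *Fabp4*, a lipid carrier of fat cells and capillaries, at -0.25. *Fabp4* was highest in DTC tumor 2 at 10.21 and mammary tumor 2 at 9.76. The part of these cells in the values of single vessel genes was not tested.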

How the data were processed

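Gene expression was measured on 8 Affymetrix MoGene arrays, 1 for each of 4 DTC tumors and 4 mammary tumors. The authors normalized the arrays by the sketch-quantile method within oneChannelGUI, and the log2 values they deposited cover 41345 probe sets. How probe sets were summarized is not stated. Columns were matched to tumors by sample label. The RNA used per array was 500 ng per the labels, whereas the paper's methods give a smaller amount. The interquartile filter of the methods was applied here.

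Gene names came from the platform annotation, which listed a single symbol for 23521 probe sets, more than 1 symbol for 1820 and no symbol for 16004. Of 10 genes of the marker lists without a probe set of their own in that annotation, none was used. Chromosomes and promoters came from RefSeq tables of GRCm38.p6.

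Groups were compared by lmFit and eBayes of limma 3.58.1 (R 4.3.3). Only the 18877 probe sets whose interquartile range exceeded 0.25 entered, and p-values were adjusted by the Benjamini-Hochberg method. A call needed an adjusted p of 0.05 or less together with a log2 difference of 1 or more in either direction. Intervals are 95% intervals of the same model without the filter. The fit was tested on simulated data with 200 changed genes, where 0% of changes of 0.5, 32% of 1, 92% of 2 and 100% of 4 on the log2 scale were recovered (50 genes each). The members and lists were chosen with earlier results of these data known. Full values are given for the 5 tip cell genes, both lymph vessel genes, *Pecam1*, *Cdh5*, *Tek*, genes with an unadjusted p of at most 0.05 or groups that do not overlap, and the 3 highest and 3 lowest of the rest. Of each further list up to 4 genes with an unadjusted p of at most 0.05, or else the 2 with the largest change, are given. *Kdr*, *Vegfa*, *Krt8*, *Krt18*, *Krt19* and *Pdgfb* lie outside that rule and were chosen after their values were seen. The alternatives changed the filter, left out dim probe sets, kept 1 probe set per gene, or changed the between-array normalization, the variance model or the array weights, added a replicate block or left out each tumor in turn. The number of arrays limits the precision.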

Additional observations from a re-analysis of the deposited data

Results flagged for a closer look

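Of 70 groups of 4 tumors examined for the 35 vessel genes, 1 held a tumor far from the others by Dixon's criterion for 4 values (0.829), where chance alone marks about 5% of groups. *Aplnr* in DTC tumor 3 read 6.06, and the other DTC tumors lay between 6.17 and 6.19, a gap of 0.832 of the range. The gap is small on the log2 scale.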

How the results depend on the processing

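The median difference of the general markers stayed between -0.02 and 0.05 with 1 tumor left out and that of the tip cell and angiogenesis genes between -0.13 and 0.22, both within the spread between tumors. The count of the 35 genes with an unadjusted p of at most 0.05, 2 as reported, was 1 with an interquartile range above 0.5, which leaves fewer genes to test, and 1 to 4 with 1 tumor left out. *Apln* dropped out without DTC tumor 1 or 3, *Clec14a* without DTC tumor 2 or mammary tumor 3, and without mammary tumor 2 *Ecscr* and *Lyve1* were added. The count of genes without overlap was 0 to 7 with 1 tumor left out: 7 without DTC tumor 4, 2 without mammary tumor 1 (*Clec14a* and *Nos3*) and 1 without mammary tumor 2 (*Ecscr*). Without DTC tumor 4 the groups also did not overlap for 14.1% of all genes. The share over all genes was not computed with any other tumor left out, nor for the changed counts of unadjusted p. Those counts therefore have no background here. Over all probe sets 25 were called. This count was 15 with an interquartile range above 0.5, 86 with 1 probe set per gene, 57 with a trended robust variance, 46 with array weights, 7 with the replicate block and 9 to 47 with 1 tumor left out; the cause was not tested. Whether the shared numbers pair the tumors was not settled. Deviations of same-numbered tumors correlated at 0.0074, 0.0146, 0.168 and 0.194 for numbers 1 to 4. The values of numbers 3 and 4 were the highest of all pairings, while DTC tumors 1 and 2 correlated best with mammary tumors 2 and 4. With the replicate block 2 of the 35 genes had an unadjusted p of at most 0.05, again *Apln* and *Clec14a*. The mean over all probe sets of a gene has no value for that count, since it was computed for levels only. No single-gene difference past an unadjusted p of at most 0.05 changed its direction. Depth in the sense of counts does not apply, and *Prox1* lay near the low end of the array.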

Other observations

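The 4 tumors highest in *Esm1* were DTC tumors 1 and 2 and mammary tumors 2 and 4. The same 4 tumors were the highest in *Angpt2* and in *Pecam1*. This was noticed after the values were seen. It holds for 3 of the 35 genes, counting *Esm1*, which set the pattern, and for 279 of all 22180 genes. The counts are therefore no test. For *Pecam1* the margin was small, with mammary tumor 4 at 7.82 and DTC tumor 3 at 7.80. *Angpt2* minus *Angpt1*, each relative to its own mean, was 1.06, 1.17, -1.34 and -0.09 in DTC tumors 1 to 4 and -0.41, 0.54, -0.51 and -0.43 in mammary tumors 1 to 4. DTC tumors held both extremes of this balance, and the means of the groups differed by 0.40, less than the SD among DTC tumors of 1.17.

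*Pdgfb*, by which tip cells attract pericytes, was named after its values were seen. It read 6.65, 6.40, 6.50 and 6.41 in DTC tumors and 6.26, 6.14, 6.27 and 6.23 in mammary tumors. Every DTC tumor lay above every mammary tumor, as in 3.89% of all genes. The interquartile range of *Pdgfb* kept it out of the test. Without that filter the difference of 0.27 had a 95% interval of 0.05 to 0.48 (unadjusted p = 0.0193, adjusted p = 0.317 from limma).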
